A study of Homo sapiens with 14 samples.

Results

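The 46 genes described here belong to the amino acid response driven by the transcription factor ATF4 and to the cytosolic machinery that loads tRNAs with amino acids. They were chosen by name and function, with earlier results of these data known. The symbols were matched to Ensembl identifiers, and 46 of 46 were found among the 61541 genes of the table. They formed 4 classes, namely 12 regulators and stress outputs, 14 enzymes of amino acid and folate-linked synthesis, 8 amino acid transporters, and 12 genes of tRNA charging, which are synthetases and the tRNA export factor XPOT. The low-count filter kept 45 of them among 18963 genes. NUPR1, a stress-induced chromatin factor, was not tested, since it had 0 counts in all libraries but 1, an NT library with 0.0529 CPM (counts scaled to a common library total, the unit of all levels below).

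The libraries came from Jurkat cells, an established human T-cell acute lymphoblastic leukaemia line, and polyadenylated RNA was sequenced. One arm compared APS-2-79, a compound that binds KSR (the KSRi group, n = 3), with its solvent DMSO (n = 3). Other cells carried a first guide against KSR2 (guide 1, n = 3), a second one (guide 2, n = 3) or a guide without a target (the NT control, n = 2). KSR2 is a scaffold of the RAF, MEK and ERK kinases. The labels describe the genetic arm in different words, as a knockout in the titles, as CRISPR interference in the design text and as a hairpin control in the names of the NT libraries. They speak of transduced cells in a protocol shared by all groups, and whether the DMSO and KSRi cells were transduced, the dose, the treatment time and the number of clones are not stated in the labels. Separate cultures are not stated for the replicates, so each p-value below reflects the spread between libraries that may be technical repeats.

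When amino acids run short or proteins misfold, kinases phosphorylate the translation factor eIF2, most protein synthesis slows, and the ATF4 mRNA is translated more. ATF4 pairs with C/EBP proteins and raises genes that take up amino acids, make serine, glycine, asparagine and proline, and charge tRNAs. It also raises its own brakes and stress outputs, such as TRIB3, DDIT3 (also called CHOP) and CHAC1. Much of the control of ATF4 lies in translation, which counts of mRNA do not measure.

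The DNA site known for pairs of ATF4 and C/EBP proteins, the C/EBP-ATF response element, was looked for in promoters because it is the feature these genes are best known to share. The search used TGATGNAA, and TTNCATCA for the opposite strand, in RefSeq windows of GRCh38.p14 from 250 bases before to 50 bases after each start. A gene counted when any of its windows held a match. Of the 46 members 37 had a window, and 14 of these held the element (37.8%, exact 95% binomial interval 22.5% to 55.2%). Among all 27305 genes with a window 1217 held it (4.46%). The 37 members had 60 windows and the 27305 genes 35116, so more windows per gene were searched for the members. Within the 100 bases before the start the element was found in 6 of 37 members (16.2%) and in 457 of all genes (1.67%). Many members are known as ATF4 targets, so this share describes the list and tests nothing. Shown first is the stretch before the start of CHAC1 (chr15:40953221-40953470, plus strand), the member with the largest rise under KSRi (this RefSeq start lies inside the wider GENCODE gene), with the element in capitals.
CHAC1: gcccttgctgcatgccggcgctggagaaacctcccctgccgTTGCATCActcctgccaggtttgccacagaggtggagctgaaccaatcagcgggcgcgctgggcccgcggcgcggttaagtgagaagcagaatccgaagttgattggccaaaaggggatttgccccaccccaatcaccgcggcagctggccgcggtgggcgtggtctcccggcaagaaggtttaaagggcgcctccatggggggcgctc
The next is the stretch before the start of ASNS (chr7:97872409-97872658, minus strand), a textbook target of ATF4.
ASNS: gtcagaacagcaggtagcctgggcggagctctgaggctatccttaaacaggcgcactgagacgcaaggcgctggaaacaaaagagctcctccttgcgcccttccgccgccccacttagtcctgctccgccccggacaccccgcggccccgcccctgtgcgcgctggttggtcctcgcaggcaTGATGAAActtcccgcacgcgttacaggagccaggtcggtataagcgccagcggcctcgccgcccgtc
The remaining lines show how alike the element is in members that behaved differently, each with the element in capitals and 11 bases on either side. They come from AARS1 (chr16:70289675-70289704, minus strand), IARS1 (chr9:92293692-92293721, minus strand), MARS1 (chr12:57488053-57488082, plus strand), TARS1 (chr5:33440956-33440985, plus strand) and SLC1A4 (chr2:64989381-64989410, plus strand).
AARS1: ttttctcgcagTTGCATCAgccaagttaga
IARS1: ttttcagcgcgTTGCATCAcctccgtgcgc
MARS1: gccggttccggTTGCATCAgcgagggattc
TARS1: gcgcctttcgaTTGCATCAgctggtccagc
SLC1A4: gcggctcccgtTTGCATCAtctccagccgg
All 5 carry the same 8 letters, and yet AARS1 and SLC1A4 rose with KSRi whereas MARS1, TARS1 and IARS1 did not pass the test. Counting from −1 as the base before the start, the element began at −209 in CHAC1, −68 in ASNS, −187 in AARS1 and −7 in SLC1A4. In the 3 that did not pass it began at −13 (IARS1), at −4 (MARS1) and, after the start, at 3 (TARS1). Of the remaining members with a match, SLC1A5 (−97), CEBPG (−42) and SLC3A2 (38) rose. MTHFD1L (−129), GARS1 (−33), SLC7A1 (8) and NARS1 (15) did not pass. Whether the position of the element goes with the change was not tested. By class, 6 of 10 genes of tRNA charging, 4 of 7 transporters, 2 of 9 enzymes and 2 of 11 regulators held it. It was found in 7 of the 23 members with a window that rose with KSRi and in 7 of the 14 tested ones that did not rise. A match describes letters only, and a window without one says nothing about binding elsewhere.

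Library totals were 21710466 to 45897075 counts. KSR2 checked the labels: it stood at 30.1 and 28.97 CPM in NT, 0.664, 0.453 and 0.507 CPM with guide 1 and 0.822, 0.73 and 0.746 CPM with guide 2, and at 34.8 to 39.3 CPM in DMSO and 33.5 to 35.6 CPM in KSRi. The guide libraries were thus all low and those of the inhibitor were not. T-lineage markers (9 of 9 detected) summed to 1310 to 1978 CPM over the libraries, the myeloid markers (4) to at most 0.754 CPM and the erythroid ones (3) to at most 0.0362 CPM. Among the B-cell markers CD79A was above 1 CPM, and MS4A1 and PAX5 were at or near 0. Between replicates of a group the chi-square per degree of freedom over genes was 17.3 to 49.9 for KSRi, 5.83 to 7.81 for DMSO and 7.55 to 26.1 in the other groups.

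With the inhibitor, 10 of 11 tested regulators, 9 of 14 enzymes and 7 of 8 transporters rose, but 2 of 12 genes of tRNA charging. Of 45 tested members 28 rose and 3 fell in KSRi against DMSO, and 14 did not pass (edgeR quasi-likelihood test, Benjamini-Hochberg adjusted p under 0.05 over all tested genes). The background was wide, since 40.7% of all tested genes were called, 22% higher and 18.7% lower. The median log2 change of the members was 0.42 and that of all tested genes 0.02. Of the called members 11 had a fitted change of at least 2-fold, a limit at which all tested genes were not counted. With at least a 1.5-fold change 19 members were called, and 3414 of the 18963 tested genes. In bulk RNA a change per cell and a change in the make-up of the cells cannot be told apart. The members together took 0.727% ± 0.0083 (SD, n = 3) of all counts in DMSO and 0.904% ± 0.0710 (n = 3) in KSRi.

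**Figure D1:**
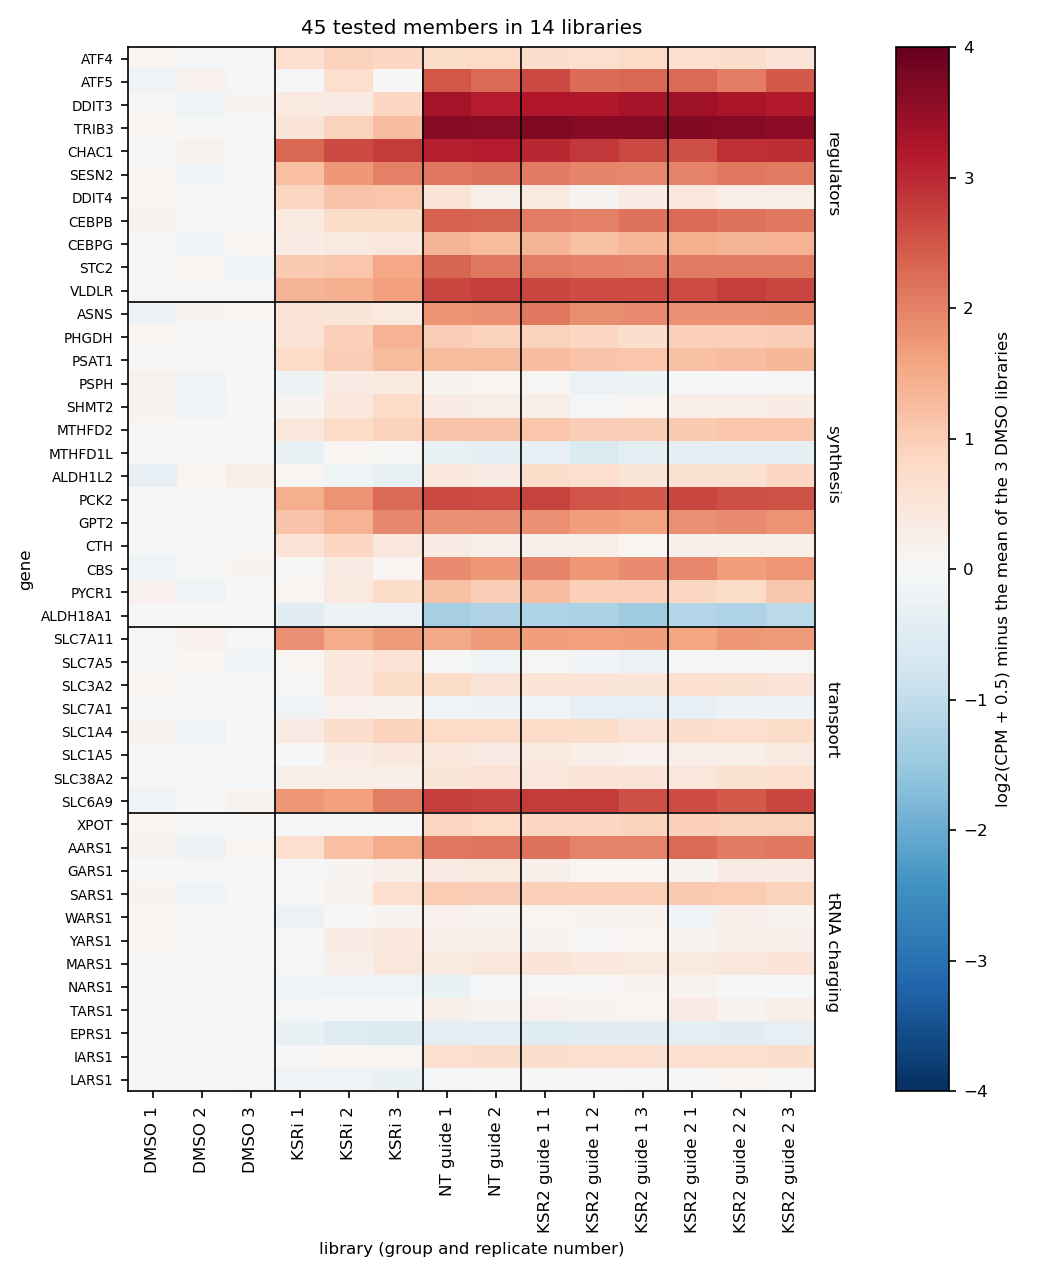
Each row is a tested member, grouped by class, and each column 1 of the 14 libraries. Colour gives log2(CPM + 0.5) minus the mean of the 3 DMSO libraries, from −4 (blue) to 4 (red). Most regulators are redder in KSRi than in DMSO and redder still in NT and with the guides, whose medians over the members lie at 0.70 to 0.84.

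Of the 11 tested regulators and stress outputs 10 rose with KSRi and 0 fell (median log2 change 0.92). ATF4 itself (ENSG00000128272, chromosome 22, 39519695 to 39522685, GRCh38) had 470.0, 436 and 434 CPM in the 3 DMSO libraries and 705, 853 and 799 CPM in the 3 KSRi libraries. All 3 KSRi values lay above all DMSO values, a 1.76-fold rise (log2 0.82 ± 0.08 SE, edgeR adjusted p = 5.96e-07). CHAC1 (ENSG00000128965, chromosome 15, 40952962 to 40956519), an enzyme that degrades glutathione, had 2.47, 2.98 and 2.48 CPM in DMSO and 14.97, 19.1 and 21.5 CPM in KSRi. This 6.96-fold rise was the largest of the members, and the groups did not overlap (log2 2.80 ± 0.16 SE, edgeR adjusted p = 1.14e-09). SESN2, a stress protein that restrains mTORC1 when leucine is scarce, went from 18.5, 16.3 and 18.04 CPM to 41.3, 59.3 and 72.6 CPM (log2 1.71 ± 0.14 SE, edgeR adjusted p = 9.99e-08). Its KSRi libraries were spread widely, and the lowest was still more than 2-fold above DMSO. VLDLR, a lipoprotein receptor that ATF4 is known to induce, had 23.1, 23.7 and 21.996 CPM in DMSO and 59.4, 62.6 and 72.4 CPM in KSRi (2.82-fold, edgeR adjusted p = 3.82e-10). DDIT4, another inhibitor of mTORC1, rose from 38.5, 36.4 and 34.6 CPM to 66.97, 81.6 and 79.6 CPM (log2 1.06 ± 0.10 SE, edgeR adjusted p = 5.57e-07). In both genes every KSRi library was above every DMSO library.

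Smaller fold changes were fitted for other transcription factors. DDIT3, a pro-death factor, had 3.89, 3.24 and 4.04 CPM in DMSO and 5.002, 4.74 and 6.99 CPM in KSRi (log2 0.54 ± 0.14 SE, edgeR adjusted p = 0.00653). ATF5, a relative of ATF4, had 13.9, 17.4 and 14.8 CPM in DMSO and 14.7, 24.4 and 15.3 CPM in KSRi. It did not pass the test (log2 0.26 ± 0.17 SE, edgeR adjusted p = 0.258), 2 of its KSRi libraries stood within the range of DMSO, and the interval of its change was −0.11 to 0.62. The other rises were 1.30 for STC2, a secreted glycoprotein, 0.92 for TRIB3, a pseudokinase that binds and restrains ATF4, 0.64 for CEBPB and 0.37 for CEBPG, which are partners of ATF4. By the gene annotation, 27.2% of the exon bases of DDIT3 lie opposite MARS1, 21.2% of those of ATF5 opposite NUP62 and 41.2% of those of DDIT4 opposite DDIT4-AS1. No label says whether counting used the strand, so these values can hold reads of the gene on the other strand.

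Among the 14 enzymes 9 rose with KSRi and 1 fell (median log2 change 0.55). PCK2, the mitochondrial enzyme that makes phosphoenolpyruvate, had 13.02, 13.5 and 12.4 CPM in DMSO and 36.2, 46.8 and 64.4 CPM in KSRi (log2 1.91 ± 0.15 SE, edgeR adjusted p = 5.05e-08). GPT2, which makes alanine in mitochondria, had 18.8, 19.3 and 18.5 CPM and 42.5, 50.1 and 73.2 CPM in the same groups (log2 1.54 ± 0.14 SE, edgeR adjusted p = 2.95e-07). Both were several-fold up with no overlap, and replicate 3 was the highest of the KSRi libraries. PSAT1, the transaminase of serine synthesis, had 212, 219 and 207 CPM in DMSO and 359, 424 and 516 CPM in KSRi (log2 1.02 ± 0.10 SE, edgeR adjusted p = 5.96e-07). MTHFD2, the mitochondrial folate enzyme, had 350.3, 329.7 and 329.7 CPM and 462, 575 and 633 CPM (log2 0.73 ± 0.09 SE, edgeR adjusted p = 1.06e-05). The serine pathway did not rise evenly. PHGDH, its entry enzyme, changed by 1.00 (log2), whereas PSPH, its last enzyme, changed by 0.19 with an interval of −0.08 to 0.45 and did not pass. SHMT2, which turns serine into glycine, rose by 0.45.

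Both other mitochondrial folate enzymes did not pass the test. MTHFD1L, which makes formate, had 113, 113 and 108 CPM in DMSO and 91.8, 118 and 115 CPM in KSRi, which overlap (log2 −0.04 ± 0.09 SE, edgeR adjusted p = 0.735). ALDH1L2, which uses up formyl-folate, had 0.209, 0.43 and 0.543 CPM and 0.436, 0.277 and 0.215 CPM and was too scarce for a narrow estimate (interval −1.14 to 0.37). In proline synthesis the members went opposite ways: PYCR1, the last enzyme, rose (log2 0.42 ± 0.14 SE, edgeR adjusted p = 0.024), and ALDH18A1, the first, fell (log2 −0.28 ± 0.08 SE, edgeR adjusted p = 0.00691). The call of PYCR1 was lost without KSRi replicate 3, DMSO replicate 2 or DMSO replicate 3, and that of SHMT2 without KSRi replicate 3 or DMSO replicate 2. In the route from homocysteine to cysteine CTH rose by 0.65, while CBS changed by 0.17 and did not pass. CBS has a near-identical copy, CBSL, with 712 counts over all libraries against 6258 for CBS, so reads may be split between them.

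ASNS, which makes asparagine and is often used as a readout of ATF4, is named here after its values were seen because it was scarce. It had 0.586, 0.86 and 0.828 CPM in DMSO and 1.28, 1.24 and 1.13 CPM in KSRi, which did not overlap (log2 0.66 ± 0.19 SE, edgeR adjusted p = 0.00957). Another gene model on the same strand (ENSG00000284707, 1583 counts over all libraries against 1430 for ASNS) covers 44.6% of the exon bases of ASNS. That model was lower with KSRi (log2 −0.49 ± 0.17 SE, edgeR adjusted p = 0.0259), and how shared reads were assigned is unknown, so the level and change of ASNS are uncertain. Without DMSO replicate 1 the change was 0.54 and lost its call (edgeR adjusted p = 0.0523).

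Of the 8 transporters 7 rose and 0 fell with KSRi (median log2 change 0.40). SLC7A11, the cystine importer, had 16.9, 20.01 and 16.9 CPM in DMSO and 65.2, 51.2 and 59.8 CPM in KSRi (log2 1.71 ± 0.10 SE, edgeR adjusted p = 8.06e-10). It was 1 of the few members for which KSRi replicate 1 was the highest. SLC6A9, a glycine transporter, rose from 0.838, 0.992 and 1.11 CPM to 4.398, 4.13 and 5.59 CPM (log2 2.20 ± 0.16 SE, edgeR adjusted p = 3.54e-08). SLC1A4, a carrier of alanine and serine, went from 76.6, 64.1 and 70.1 CPM to 88.5, 114 and 134 CPM (log2 0.68 ± 0.11 SE, edgeR adjusted p = 0.00018). SLC38A2, a carrier of small neutral amino acids that starvation is known to induce, had 363, 353 and 333 CPM and 407, 419 and 422 CPM (log2 0.25 ± 0.07 SE, edgeR adjusted p = 0.00693). For these 4 transporters no KSRi library reached down to the DMSO range.

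Smaller changes were fitted for the carriers of leucine and glutamine. SLC7A5, the leucine carrier, changed by 0.38 and its partner chain SLC3A2 by 0.42. SLC1A5, the glutamine carrier, had 296, 277 and 283 CPM in DMSO and 284, 353 and 381 CPM in KSRi, so that replicate 1 lay inside the DMSO range (log2 0.25 ± 0.09 SE, edgeR adjusted p = 0.036). SLC7A1, which carries arginine and lysine, had 380.3, 376 and 375 CPM and 340.1, 421 and 407 CPM and did not pass (log2 0.05 ± 0.08 SE, edgeR adjusted p = 0.685). Without KSRi replicate 3 the calls of SLC7A5, SLC3A2 and SLC1A5 were lost, 4 transporters were left and the median of the class was 0.25. SLC7A5 also lost its call without DMSO replicate 3, and SLC1A5 without any 1 of the DMSO libraries or KSRi replicate 2. Over the fits that left out 1 library, 6209 to 8928 of all tested genes were called with KSRi, against 7712 in the main fit.

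**Figure D2:**
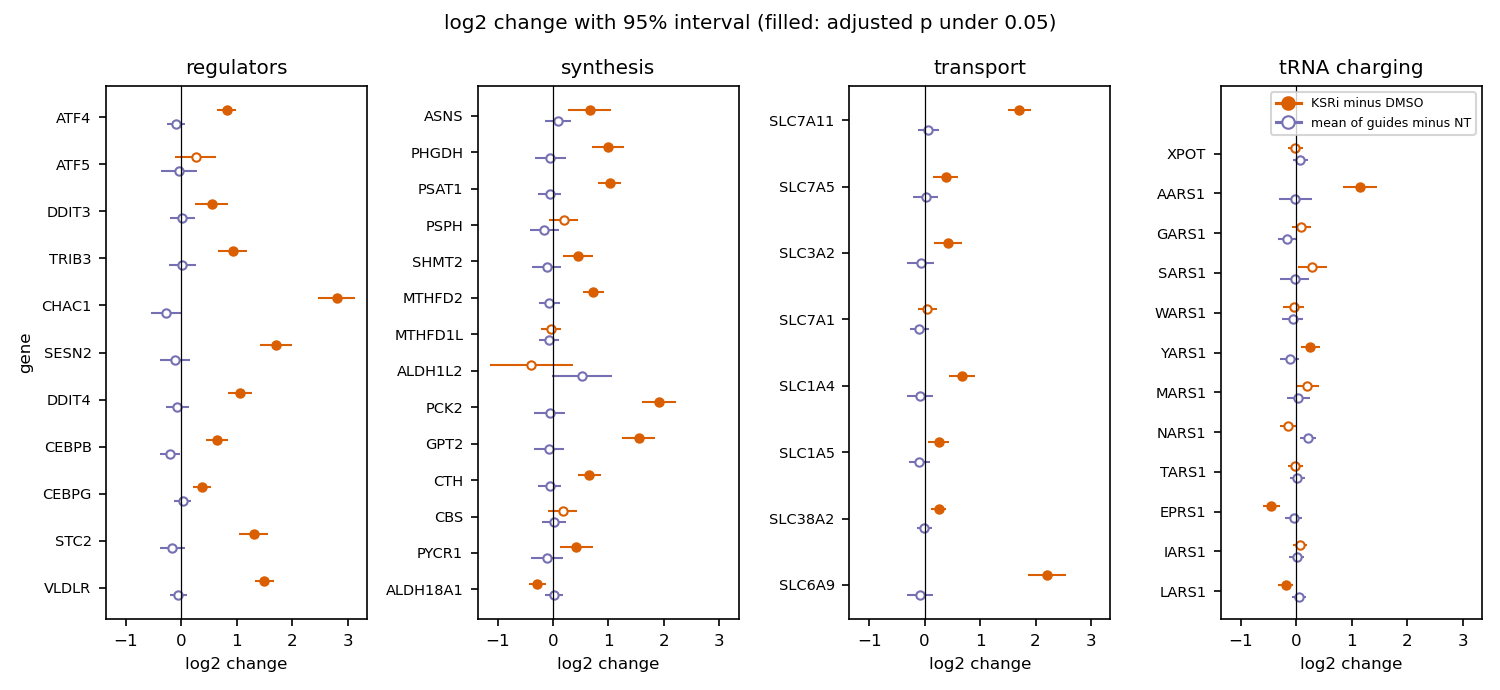
Points are fitted log2 changes of the 45 tested members by class and lines their 95% intervals, for KSRi minus DMSO (orange) and for the mean of both guides minus NT (violet). Filled points passed the test. Orange points reach 2.80 for CHAC1, while no violet point is filled.

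Of the 12 genes of tRNA charging 2 rose and 2 fell with KSRi, and 8 did not pass (median log2 change 0.03). The called share was 33.3%, where 40.7% of all tested genes were called. AARS1, the alanine synthetase, had 186, 149 and 179 CPM in DMSO and 270.2, 396 and 479 CPM in KSRi, a 2.23-fold rise without overlap (log2 1.15 ± 0.15 SE, edgeR adjusted p = 1.2e-05). EPRS1, which charges both glutamate and proline, had 336, 342 and 325 CPM and 275, 233 and 227 CPM and fell (log2 −0.45 ± 0.07 SE, edgeR adjusted p = 0.000102). LARS1, the leucine synthetase and a leucine sensor, fell from 351, 352 and 364 CPM to 320.4, 319 and 295 CPM (log2 −0.19 ± 0.06 SE, edgeR adjusted p = 0.021). YARS1, the tyrosine synthetase, had 239, 220.2 and 222 CPM and 232, 278 and 303 CPM, with replicate 1 inside the DMSO range (log2 0.26 ± 0.08 SE, edgeR adjusted p = 0.0184). XPOT, which carries tRNAs out of the nucleus, had 498, 454 and 464 CPM and 456, 473 and 473 CPM, and TARS1, the threonine synthetase, 270.3, 281 and 289 CPM and 265, 284 and 281 CPM. Neither passed, with intervals of −0.15 to 0.12 for XPOT and −0.16 to 0.12 for TARS1. The other 6 lay between −0.15 (NARS1) and 0.29 (SARS1). The calls of YARS1 and LARS1 were lost without KSRi replicate 3 and also without DMSO replicate 3, which left 2 calls in the class, and that of YARS1 without DMSO replicate 2 or KSRi replicate 2. Without KSRi replicate 1, SARS1 (log2 change 0.42) and MARS1 (0.33) passed, which made 6. The count over all tested genes also moved between these fits, from 6209 to 8928.

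Synthetase genes outside the list were mostly called lower or not called, where 22% of all tested genes rose and 18.7% fell. Of 12 other cytosolic synthetases and scaffold proteins of their complex 2 rose and 10 fell (median log2 change −0.37). CARS1, the cysteine synthetase, rose by 0.83, whereas FARSB (phenylalanine) changed by −0.53, HARS1 (histidine) by −0.39 and RARS1 (arginine) by −0.39, each of them called. Of 17 mitochondrial synthetases 0 rose and 7 fell (median −0.17), such as CARS2 (−0.55) and MARS2 (−0.59). The difference between these lists and the members was not tested.

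**Figure D3:**
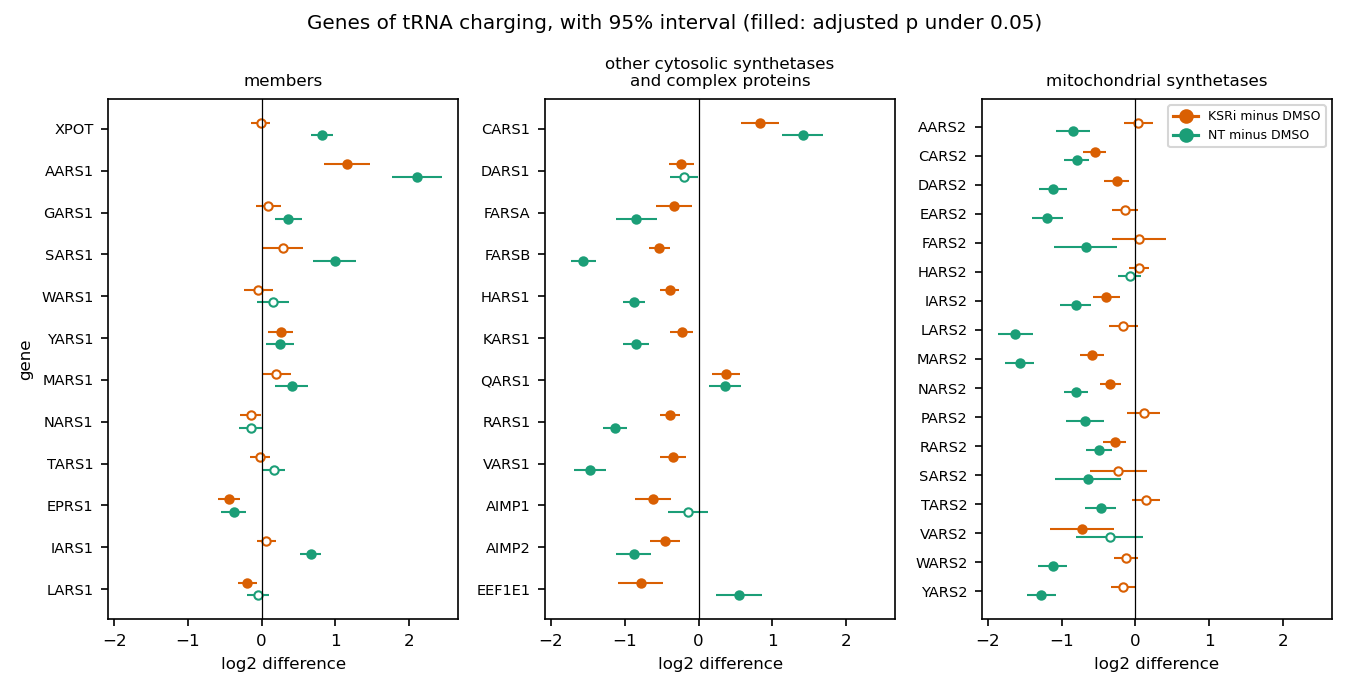
Log2 differences from DMSO with 95% intervals for the 12 members of tRNA charging, 12 other cytosolic synthetases and complex proteins, and 17 mitochondrial synthetases, in KSRi (orange) and NT (green). Filled points passed the test. AARS1 and CARS1 lie far to the right in both, and the mitochondrial genes lie mostly to the left.

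Further genes around the pathway were read from lists chosen by function, beside 22% of all tested genes called higher with KSRi and 18.7% lower. Of 15 genes upstream of ATF4, which are eIF2 kinases, subunits, exchange factors and phosphatase regulators, 3 rose and 4 fell (median −0.06). EIF2AK3, the kinase that senses misfolded protein in the endoplasmic reticulum (ER), rose by 0.37, and EIF2S1, the subunit that is phosphorylated, changed by −0.45. Of 12 tested further ATF4 outputs (4 more were too scarce) 9 rose and 1 fell (median 1.13), among them VEGFA (1.95), ADM2 (1.53), SESN3 (1.62) and CCNG2 (1.70), the last 2 of which FOXO factors are also known to induce. Of 19 other amino acid enzymes 4 rose and 8 fell (median −0.03). ASS1, which makes argininosuccinate for arginine synthesis, rose by 2.20 and GOT1, the cytosolic aspartate transaminase, by 0.98. MAT2A, which makes S-adenosylmethionine, changed by −0.90 and was called. Of 12 other transporters 2 rose and 5 fell (median −0.14), among them SLC7A8 at 1.63 and SLC7A6 at −0.58, which exchange amino acids across the membrane. Of 15 ER chaperone and unfolded protein genes 4 rose and 4 fell (median −0.02), with DNAJB9 at 0.96 and XBP1 at 0.59 but the chaperones HSPA5 at −0.65 and HSP90B1 at −0.89, all 4 called.

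The 3 KSRi libraries did not respond alike. Replicate 1 was the lowest of the 3 for 36 of 45 members and replicate 3 the highest for 28. Among all tested genes replicate 1 was the lowest for 46.4% and replicate 3 the highest for 37.9%. Of the 28 members higher with KSRi replicate 1 was the lowest for 23 and replicate 3 the highest for 23. Among all genes higher with KSRi the shares were 68.3% and 57.6%. The median over the members of log2(CPM + 0.5), relative to the DMSO mean, was 0.12 in replicate 1, 0.42 in replicate 2 and 0.58 in replicate 3. The share of mitochondrially encoded transcripts was 2.51%, 2.06% and 1.12% in the same libraries and 1.27% to 1.45% in DMSO, and its part in the result was not tested. The summed level of 4 epithelial and fibroblast markers, nearly all of it VIM with EPCAM at 0, was 728 to 795 CPM in DMSO and 822 to 1040.3 CPM in KSRi, and its part was not tested either. The median change of the members was 0.27 without replicate 3 and 0.57 without replicate 1. The regulators kept 10 calls without any 1 of these libraries. The main fit estimates the spread jointly over the 5 groups, of which KSRi had the widest range between replicates. With only the KSRi and DMSO libraries fitted, PYCR1, SLC1A5 and YARS1 lost their calls (edgeR adjusted p = 0.0578, 0.0839 and 0.0645).

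**Figure D4:**
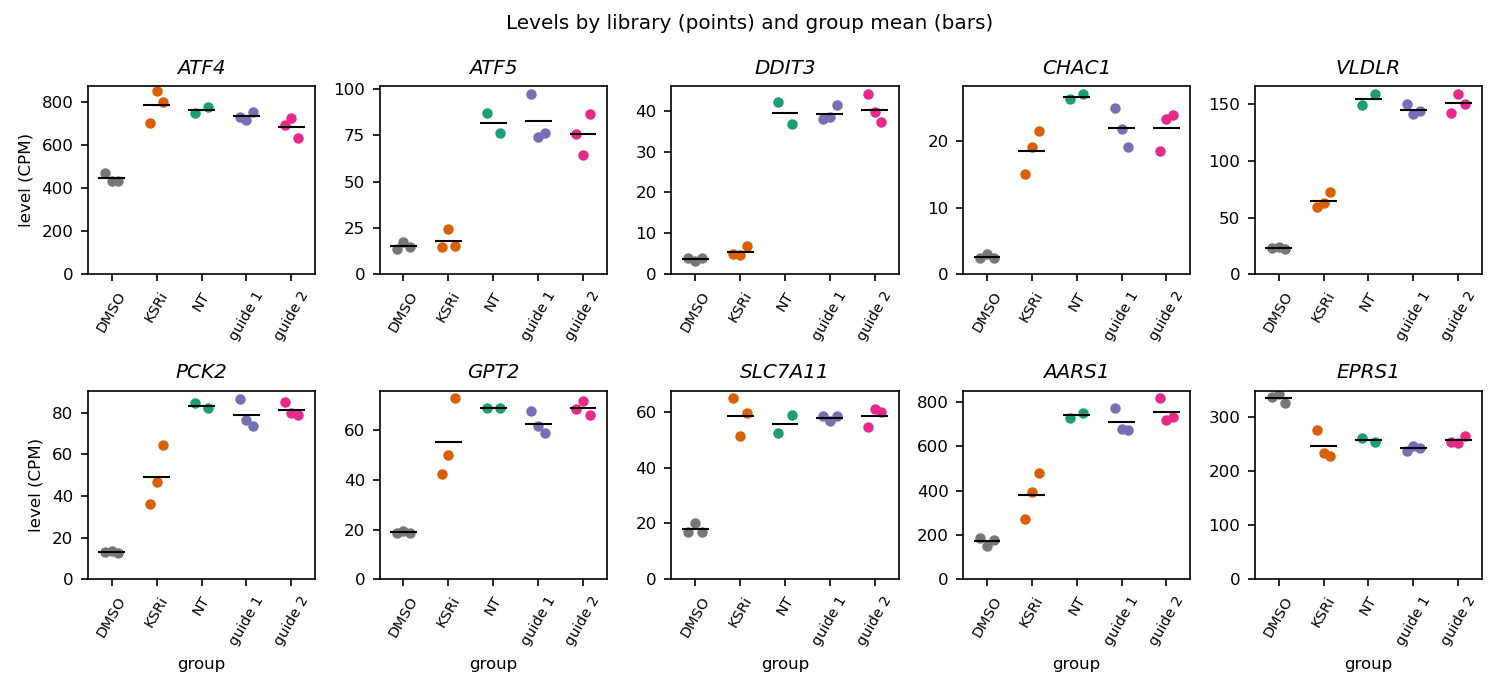
Levels in CPM of 10 members in the 14 libraries (points) with group means (bars), each panel starting at 0. The KSRi points of ATF4 and SLC7A11 overlap those of NT, DDIT3 and ATF5 are several-fold lower in KSRi than in NT or with the guides, and EPRS1 is below DMSO in all 4 other groups.

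No member changed detectably with the guides, although the KSR2 transcript was nearly lost. With guide 1 against NT 0 of 45 members passed (0.00527% of all tested genes were called), with guide 2 against NT 0 of 45 (background 0.0105%), for the mean of both guides 0 of 45 (0.0158%) and between the guides 0 of 45 (0.00527%). DESeq2 and limma-voom also called 0 members in each. At an unadjusted edgeR p under 0.05 there were 3 members for guide 1, 1 for guide 2, 4 for both and 0 between the guides, where 880, 683, 788 and 614 of the 18963 tested genes stood under the same limit. The 4 for both were CHAC1 (−0.28), CEBPB (−0.21), GARS1 (−0.17) and NARS1 (0.21), named after their values were seen. The median log2 change for both guides was −0.06 over the members and −0.0044 over all tested genes.

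The intervals bound what may have been missed. For both guides the 95% intervals extended a median of 0.20 log2 units to either side of the change. They reached no farther from 0 than 0.55 among the regulators, 0.32 among the transporters and 0.35 in tRNA charging. Among the enzymes the farthest bound was 1.07, that of ALDH1L2. ATF4 had 748 and 775 CPM in NT and 634 to 752 CPM over the 6 guide libraries (log2 −0.10 ± 0.08 SE, edgeR adjusted p = 0.989). CHAC1 had 26.3 and 26.98 CPM in NT and 18.4 to 24.98 CPM with the guides, so that all 6 lay below both NT libraries and none near the DMSO level (log2 −0.28 ± 0.13 SE, edgeR adjusted p = 0.989). Of 45 members 7 had all guide libraries below NT and 2 had all above, and all tested genes were not counted for this. For VLDLR the values were 149 and 159 CPM and 141 to 159 CPM, for PCK2 84.3 and 82.4 CPM and 73.5 to 86.7 CPM, and for AARS1 730.3 and 750.1 CPM and 672 to 817 CPM. In VLDLR, PCK2 and AARS1 the guide libraries overlapped those of NT. The limits of this comparison are the 2 NT libraries and the level of the members in NT, which was already high.

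Most members were already higher in NT than in DMSO. Against DMSO, 33 of 45 members were higher in NT and 3 lower, with 9 not called, where 65.8% of all tested genes were called (34.6% higher and 31.2% lower). The median log2 difference was 0.78 for the members and 0.04 for all tested genes. Of the called members 20 differed at least 2-fold, and all tested genes were not counted at that limit. The scaling bears on these counts: with upper-quartile factors the median of all tested genes was 0.26, the called genes were 8283 higher and 4187 lower instead of 6568 and 5909, and the members 38 higher and 1 lower (ALDH18A1). EPRS1 and MTHFD1L then lost their calls (MTHFD1L also with the 5 CPM filter and without NT replicate 2), and LARS1 turned from −0.05 to 0.17. By the titles, NT carried a guide without a target and DMSO was the solvent control. The titles do not say whether either group also had what the other had. Guide, solvent and any handling that goes with them cannot be told apart. Beside this, the summed level of the B-cell markers, nearly all of it CD79A, was 21.8 to 23.1 CPM in DMSO and 46.9 to 68.0 CPM in NT, that of the T-lineage markers 1515 to 1540.0 CPM and 1422 to 1494 CPM, and the mitochondrial share 1.27% to 1.45% and 1.85% to 2.50%. Single T-lineage markers went both ways, with 2 of 9 called higher in NT and 3 lower (log2 differences −1.02 to 0.45). The part of these marker and mitochondrial differences in the result was not tested. The members took 1.34% ± 0.0078 (SD, n = 2) of all counts in NT, 1.31% ± 0.0337 (n = 3) with guide 1 and 1.34% ± 0.0118 (n = 3) with guide 2. KSRi and NT are both read against the same DMSO libraries, so their values below are set side by side and not related to each other.

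All 11 tested regulators were called higher in NT than in DMSO (median 2.37). DDIT3 stood at 42.1 and 36.7 CPM in NT against 3.24 to 4.04 CPM in DMSO, 10.5-fold higher (log2 3.40 ± 0.14 SE, edgeR adjusted p = 4.34e-12). TRIB3, named after its values were seen, had 484 and 468 CPM in NT, 54.5, 71.9 and 90.8 CPM in KSRi and 39.9, 37.5 and 36.9 CPM in DMSO, a 12.5-fold difference of NT from DMSO that was the largest of the members (log2 3.64 ± 0.14 SE, edgeR adjusted p = 1.99e-12). ATF5 had 86.98 and 76.2 CPM and differed by 2.41, CEBPB differed by 2.37, and CHAC1 by 3.33. ATF4 itself was 1.71-fold higher (log2 0.77 ± 0.09 SE, edgeR adjusted p = 6.05e-07), and DDIT4, at 52.6 and 41.98 CPM, was higher by 0.37. Without NT replicate 1 the difference of DDIT4 was 0.20 and its call was lost (edgeR adjusted p = 0.2035).

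Among the enzymes 9 of 14 were higher in NT and 2 lower (median 1.02). PCK2 differed by 2.68, ASNS, with the reservation about shared reads given above, by 2.33 and CBS by 1.90. MTHFD1L (−0.34) and ALDH18A1 (−1.26) were lower. For ALDH18A1 the NT libraries had 117 and 127 CPM and the DMSO libraries 287, 290.2 and 297 CPM. Of the transporters 6 of 8 were higher and 0 lower (median 0.58), led by SLC6A9 (3.22) and SLC7A11 (1.63), while SLC7A5 (−0.09) and SLC7A1 (−0.15) did not pass. In tRNA charging 7 of 12 were higher and 1 lower (median 0.31). The called shares were 78.6% of the enzymes, 75% of the transporters and 66.7% in tRNA charging, where 65.8% of all tested genes were called. The share in tRNA charging was thus near that of all tested genes. AARS1 differed by 2.11, SARS1, the serine synthetase, by 0.99, XPOT by 0.82 and IARS1, the isoleucine synthetase, by 0.67, and EPRS1 was lower (−0.38).

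The lists around the members also differed between NT and DMSO, where 34.6% of all tested genes were called higher and 31.2% lower. Of 15 ER chaperone and unfolded protein genes 15 were higher in NT (median 1.37), including HSPA5 by 1.31 and HSP90B1 by 1.28, which fell with KSRi. Mitochondrial synthetases were lower in 15 of 17 cases (median −0.81) and other cytosolic synthetases in 7 of 12, with 3 higher (median −0.84). The eIF2 list had 2 genes higher and 11 lower of 15 (median −0.68), and the further ATF4 outputs 8 higher and 2 lower of 12 (median 1.56).

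**Figure D5:**
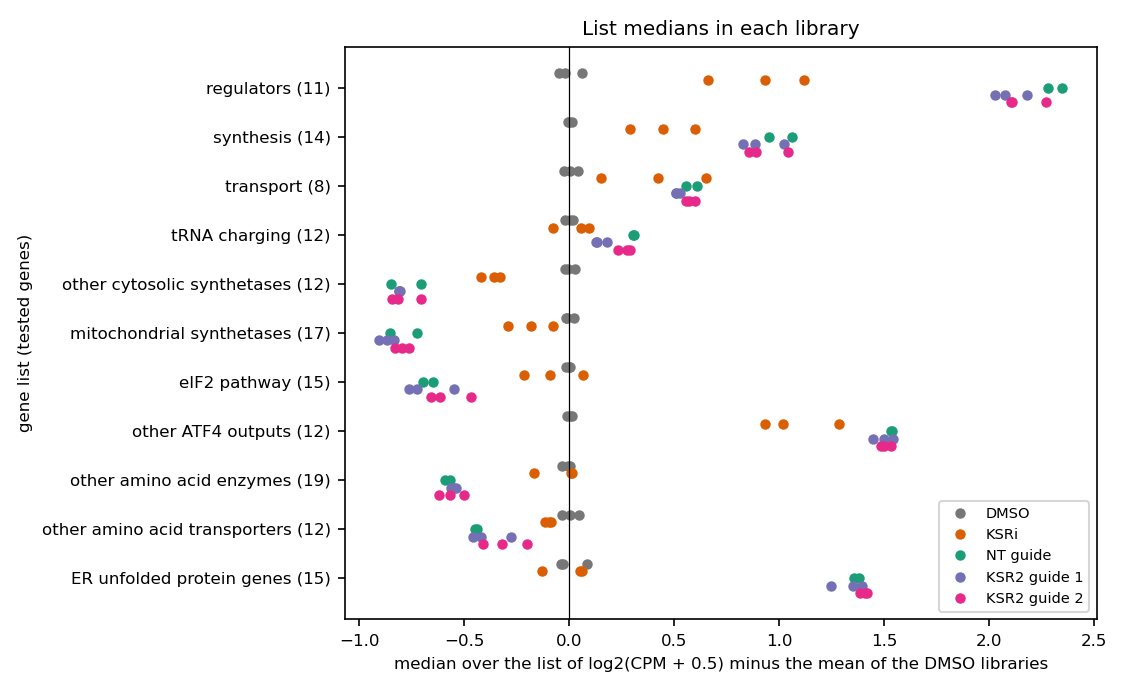
For each list, points give the median over its tested genes of log2(CPM + 0.5) minus the DMSO mean, 1 point per library and colour per group. Regulators and further ATF4 outputs lie to the right in KSRi and farther right in NT and the guide groups, and the ER list lies near 0 in KSRi and at 1.25 or above in the NT and guide libraries.

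NT was also compared with KSRi directly, a contrast added after the levels were seen. It called 23 members higher in NT and 5 lower, where 59.8% of all tested genes were called (30.1% higher and 29.7% lower). The scaling decides much of this: with upper-quartile factors the median of all genes was 0.25, the called genes went from 5702 higher and 5631 lower to 7761 and 3881, and the members to 34 higher and 2 lower. Of the regulators 9 of 11 were called higher and 1 lower, under both scalings. In tRNA charging 6 of 12 were called higher, and 12 of 12 with those factors. The differences (NT minus KSRi, log2) were 2.86 for DDIT3, 2.72 for TRIB3, 0.53 for CHAC1 and 0.46 for SESN2. SESN2 lost its call without NT replicate 2 (edgeR adjusted p = 0.0671).

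ATF4 itself was not called between NT and KSRi, with an interval of −0.23 to 0.14, nor were SLC7A11 (−0.29 to 0.14) and PHGDH (−0.37 to 0.27), and these 3 passed under no alternative. The KSRi libraries of ATF4 spanned the NT ones, whereas those of DDIT3 and TRIB3 lay far below them. PSAT1 (0.02 to 0.48) and GPT2 (0.02 to 0.64) were not called here but passed with upper-quartile factors, with limma-voom, with no filter, with the 5 CPM filter and without KSRi replicate 3. PSAT1 also passed with a replicate block (edgeR adjusted p = 0.0406). Members called lower in NT than in KSRi were DDIT4 (−0.69), ALDH18A1 (−0.98), SLC7A5 (−0.47), CTH (−0.39) and MTHFD1L (−0.30). The calls of DDIT4 and ALDH18A1 held under every alternative run. With upper-quartile factors the other 3 lost their calls, at −0.25 for SLC7A5, −0.18 for CTH and −0.09 for MTHFD1L, and all 3 were also lost without NT replicate 2.

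Whether the inhibitor and the guides acted differently on the members was tested as the change with KSRi minus the mean change with the guides. It was higher than 0 for 24 members and lower for 4, where 28.6% of all tested genes were called (16.6% higher and 12.1% lower). The median difference of the changes was 0.49 for the members and 0.03 for all tested genes. Of the regulators 10 of 11 were called higher, led by CHAC1 (log2 3.08 ± 0.20 SE, edgeR adjusted p = 1.34e-08) and SESN2 (1.82). PCK2 (1.97), GPT2 (1.61), SLC7A11 (1.64), SLC6A9 (2.29) and AARS1 (1.17) were called higher as well. The 4 called lower were ALDH18A1 (−0.30), NARS1 (−0.36), EPRS1 (−0.40) and LARS1 (−0.24). Of these EPRS1 kept its call in each fit that left out 1 library, and NARS1 lost it without NT replicate 1 (edgeR adjusted p = 0.105). ALDH18A1 and LARS1 lay close to the threshold and lost theirs with a replicate block (edgeR adjusted p = 0.0767 and 0.0584) and in most of the fits that left out 1 library, among them those without either NT library or any DMSO library. In tRNA charging 5 members were called, and 2 without NT replicate 1, 3 without NT replicate 2, DMSO replicate 2, DMSO replicate 3 or KSRi replicate 2, and 8 without KSRi replicate 1. Of the transporters 4 were called, and 7 without KSRi replicate 1. Over all fits that left out 1 library, 19 to 34 members and 3366 to 7377 of all tested genes were called, against 5431 genes in the main fit. The fewest genes were called without NT replicate 1 and the most without KSRi replicate 1. The starting levels of the 2 arms differed, as given above for DMSO and NT, and the part of that in these differences was not tested.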

How the data were processed

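The authors deposited whole-number counts per Ensembl gene for 14 libraries, not normalized. STAR 2.7.11b, DESeq2 1.42.1 and GRCh38 were used, per the submitters' processing notes. The counting program, its strand setting and its annotation are not given in those sources, which matters for overlapping genes.

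Counts were fitted with edgeR 4.0.16 (R 4.3.3). TMM factors and filterByExpr on the 5 groups were used, with 1 mean per group and a spread estimated jointly from the 14 libraries, as NT alone gives too little. P-values of the quasi-likelihood tests got a Benjamini-Hochberg adjustment across the 18963 genes kept. CPM values use TMM-scaled totals.

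Members, classes and lists were chosen with earlier results of these data known. Values in every library are given for ATF4, ATF5 and, per class, the 4 members with the lowest and the 2 with the highest adjusted p with KSRi, and up to 4 genes of lowest p are named per other list. Others with such values were chosen after their values were seen.

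Other settings tried were no filter, RLE or upper-quartile factors, 5 CPM in 3 libraries, DESeq2 1.42.0, limma-voom (limma 3.58.1), only the groups compared, a replicate block, each library left out, an adjusted p under 0.01 and at least a 1.5-fold change. Positions are those of GENCODE genes on GRCh38, and promoter sequences are from RefSeq (GRCh38.p14).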

Additional observations from a re-analysis of the deposited data

How the results depend on the processing

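Under every alternative run other than the stricter p and the 1.5-fold minimum, 23 of the 31 members called with KSRi kept their call, as did 31 of 36 for NT against DMSO, 19 of 28 for the inhibitor against the guides and 21 of 28 for NT against KSRi. Upper-quartile factors turned the sign of 2 members: LARS1 in NT against DMSO (0.17) and YARS1 in NT against KSRi (0.21). These factors move the median of all genes to 0.26 for NT against DMSO and 0.25 for NT against KSRi. With at least a 1.5-fold change 19 members and 3414 genes were called for KSRi, 18 members and 3111 genes for the inhibitor against the guides, and 7269 genes for NT against KSRi. At an adjusted p under 0.01 there was 1 gene for both guides and 2908 for the inhibitor against the guides. Without the filter 35, 35, 41 and 13 genes were called for guide 1, guide 2, both and between the guides, and 8, 5, 7 and 2 by DESeq2. Limma-voom called 1 gene for both guides. Leaving out each library gave 1 to 5 genes for guide 1 (5 without NT replicate 1, 3 without NT replicate 2), 2 to 4 for guide 2, 1 to 3 for both, 1 to 2 between the guides and 3366 (without NT replicate 1) to 7377 (without KSRi replicate 1) for the inhibitor against the guides. No member was called with the guides under any of these, and the cause of the changes was not tested. The labels do not say whether replicate numbers pair the libraries. Deviations from the group mean had correlations of −0.325 to 0.186 between same-numbered libraries of different groups (3 of 26 over 0.1). Between different-numbered ones they were −0.186 to 0.253 (13 of 52 over 0.1). A shared culture or day cannot be read from these values. With a replicate block 30 members passed for KSRi, 36 for NT against DMSO, 25 for the inhibitor against the guides and 28 for NT against KSRi, and 2 genes for guide 1. The share of member promoters with the element was 16.2% within 100 bases of the start. The inhibitor against the guides involves all groups, so no fit of only the groups compared was run for it. Depth limits scarce members, such as ALDH1L2, ASNS and SLC6A9, and intervals cover these libraries only.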
